A study of Mus musculus with 24 samples.

Results

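The comparison described here set mouse embryonic stem cells labelled DUXBL-KO against cells labelled WT, both after 16 h of doxycycline (DOX), which switches on a DUX transgene. It takes 4 of the 24 libraries of the series, 2 in each group, chosen by their titles, and covers 18060 genes and 981 repeat subfamilies that passed a filter on low counts. All cells are of the KH2 line, a mouse embryonic stem cell line, and the titles place the DUX transgene (TRE_DUX) in every group, WT included. The same WT and DUXBL-KO cells without DOX (4 libraries) gave the difference before induction, and the 8 libraries of WT cells labelled pLV2, in 2 sets numbered 1 and 2, gave the genes that DUX induction raises. In 8 of the 16 pLV2 libraries of the series, among them the 4 WT ones titled with DOX, the treatment entry of the labels disagrees with the title, and the titles were followed for every pLV2 value given here. What pLV2 is, what was altered in the Duxbl genes, and whether the number 1 in the DUXBL-KO title stands for a clone are not given in the labels. The labels do not say that the replicates were separate cultures, so the p-values measure the spread between these libraries only. In the text below, "KO-labelled" stands for the libraries labelled DUXBL-KO.

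DUX is a double-homeobox transcription factor that is made for a short time in the 2-cell mouse embryo. When it is expressed in embryonic stem cells it switches on the genes of that stage, among them the Zscan4 family, Zfp352, the Tcstv and Tdpoz families, and the endogenous retrovirus MERVL with its long terminal repeat MT2_Mm. DUXBL is a related double-homeobox protein whose genes are themselves switched on by DUX, and the study's title gives it a role in leaving that state. The comparison asks whether cells labelled DUXBL-KO hold more of the DUX-driven programme, or a different one, at this time.

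Gene counts ranged from 15927101 to 19013264 in the 4 libraries, and repeat subfamilies took 13.2% and 11.9% of all counts in WT and 15.8% and 15.5% in the KO-labelled libraries (Wilson 95% limits within 0.02 of each value, which cover counting error only). The summed level of 10 embryonic stem cell markers was 4895 to 4995 CPM (counts relative to a library's total gene count, scaled by TMM) in WT and 4843 to 5384 CPM in the KO-labelled libraries. Feeder fibroblasts are a possible admixture under the growth protocol. Of 19 fibroblast markers 10 passed the filter, 9 of them lower and 1 higher in the KO-labelled libraries and 0 called. Over all 18060 genes 8540 were lower and only 0.072% were called, so the 0 says nothing about these markers. Their summed level was 64.4 to 77.2 CPM in WT and 58.1 to 71.1 CPM in the KO-labelled libraries, of which Fbln1 gave 34.8 to 50.9 CPM, while the defining markers Col3a1, Dcn, Lum and Postn were under the filter. Their part in the differences below was not tested.

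The Duxbl genes were read first, since they are the targeted ones. Duxbl1 (chromosome 14, 25978577 to 25990088, + strand) stood at 8.34 and 3.23 CPM in WT with DOX and at 11.1 and 4.97 CPM in the KO-labelled libraries, so the groups overlapped and the transcript was not lower (log2 difference 0.47 ± 0.69, SE, adjusted p 0.852). Duxbl3 was at 1.98 and 0.328 CPM in WT and 0.723 and 1.58 CPM in the KO-labelled libraries, and Duxbl2 counted 0 and 6 reads in WT against 0 and 0. A count over a whole gene does not show a small deletion or a frameshift, and the 3 copies are close in sequence, so these levels are no check of the label.

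The level of the inducer is given next. Dux itself, named Duxf3 in the annotation, was at 1.38 and 1.09 CPM (23 and 20 counts) in WT with DOX and at 4.93 and 2.84 CPM (75 and 52 counts) in the KO-labelled libraries, and had 0 counts in all 4 libraries without DOX. Both KO-labelled libraries were above both WT libraries. The difference was 1.64 ± 0.41 on the log2 scale (SE, n = 2 against 2) and did not pass (adjusted p 0.341). These counts do not separate the transgene from the cells' own Dux copies, and the part that the Dux level has in the differences below was not tested.

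With DOX, 13 of 18060 genes (0.072%) differed at an adjusted p under 0.05 in edgeR's quasi-likelihood test, 3 of them higher and 10 lower in the KO-labelled libraries. The higher genes were Mgll, Tsn and Atp2a2. The lower genes were Plekha8, Prag1, Snx10, Kbtbd2, Avl9, Eif2s3y, Cbx3, Tax1bp1, Nod1 and Ggct. None of the repeat subfamilies was called (0 of 981, 0%), though 210 of them were under an unadjusted p of 0.05. Leaving out any 1 of the 4 libraries leaves 1 library in its group, so only the directions are given here, and all 13 genes kept theirs. A fit to the compared groups alone called only Mgll. DESeq2 called more, 164 genes, the 13 among them, and 24 repeat subfamilies. A fit with a term for the replicate number (a replicate block) called 459 genes, 159 of them higher, and the 13 were among them. No label says that a replicate number marks a shared batch. Over the alternatives with 2 libraries in each group, the gene count ran from 1 to 837.

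**Figure D1:**
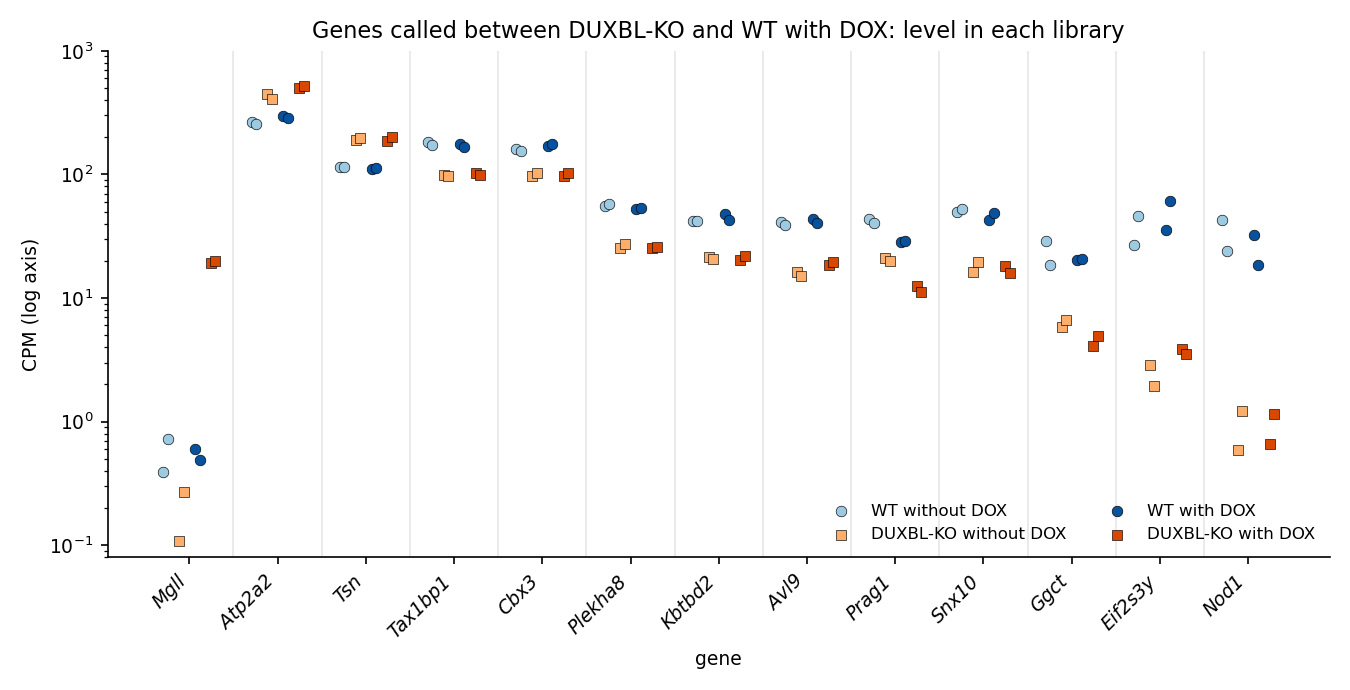
Level (CPM, log axis) of the 13 genes called with DOX, in each of the 8 plain libraries; blue circles are WT, orange squares DUXBL-KO, pale symbols without DOX and dark symbols with DOX. Mgll is high only in the dark squares (19.3 and 19.9 CPM), while the other 12 genes keep the same order of WT and DUXBL-KO without DOX.

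Mgll had the largest of the 13 differences and was the only one of these genes without the same direction before induction. It encodes monoacylglycerol lipase, the enzyme that splits monoacylglycerols, including the endocannabinoid 2-arachidonoylglycerol, into glycerol and a fatty acid. Mgll (ENSMUSG00000033174.17) lies on chromosome 6, 88724412 to 88828360, + strand, in GRCm38. Its level was 0.60 and 0.492 CPM in WT with DOX and 19.3 and 19.9 CPM in the KO-labelled libraries with DOX. Without DOX it was 0.388 and 0.729 CPM in WT and 0.108 and 0.267 CPM in the KO-labelled ones. Both induced KO-labelled libraries thus stood far above the other 6 plain libraries, which had 2 to 12 counts each against 293 and 364. The difference with DOX was 5.15 ± 0.34 on the log2 scale (SE, adjusted p 0.0145), and without DOX it was -1.57 ± 0.50 (adjusted p 0.442). The test of the change between them, the interaction of genotype and DOX, gave 6.72 ± 0.61 with an adjusted p of 0.142 and did not pass. No gene passed that test in edgeR (0 of 18060, 0%, with 97 under an unadjusted p of 0.05), while DESeq2 called 1 gene, Mgll (adjusted p 1.15e-10). Over the alternatives the adjusted p of the Mgll interaction ran from 4.47e-16 with no filter on low counts to 1.00 without WT replicate 2 without DOX.

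Neither a gene model inside Mgll nor its flanking genes were called. Gm44001, a gene model of the TEC class in the annotation, lies inside the Mgll gene on the same strand (88802243 to 88806015). It had 0 and 0 counts in WT with DOX and 33 and 30 counts in the KO-labelled libraries. Set against 3 counts per library, its level was at least 11.1-fold higher, with an adjusted p of 0.112. Reads of Gm44001 and of Mgll introns or exons at the same place cannot be told apart. Of the flanking genes, Sec61a1 differed by -0.02 ± 0.11, Abtb1 by -0.05 ± 0.14, Mcm2 by 0.03 ± 0.09 and Ruvbl1 by 0.29 ± 0.11 (log2, SE), with adjusted p-values from 0.459 to 0.970. Gm44001 and these 4 genes were chosen for their place after the Mgll value was seen.

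Mgll was not high in the KO-labelled cells alone. Among the WT libraries labelled pLV2, line 1 with DOX had 0.381 and 0.605 CPM of Mgll, as low as plain WT, whereas line 2 with DOX had 23.0 and 23.9 CPM, above the KO-labelled libraries. Without DOX these lines were at 0.686 and 0.257 CPM (line 1) and 0.388 and 1.04 CPM (line 2). With DOX the cells labelled TRIM24-KO had 38.6 and 35.3 CPM and those labelled TRIM33-KO 41.0 and 32.0 CPM. With DOX, Mgll thus stood at 19.3 CPM or more in 1 of the 3 WT groups and in all 3 knockout groups, and at 0.605 CPM or less in the other 2 WT groups. The plain and pLV2 libraries were scaled separately. Gm44001 followed the same split, with 0 and 0 counts in WT line 1 and 22 and 38 counts in WT line 2 with DOX.

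**Figure D2:**
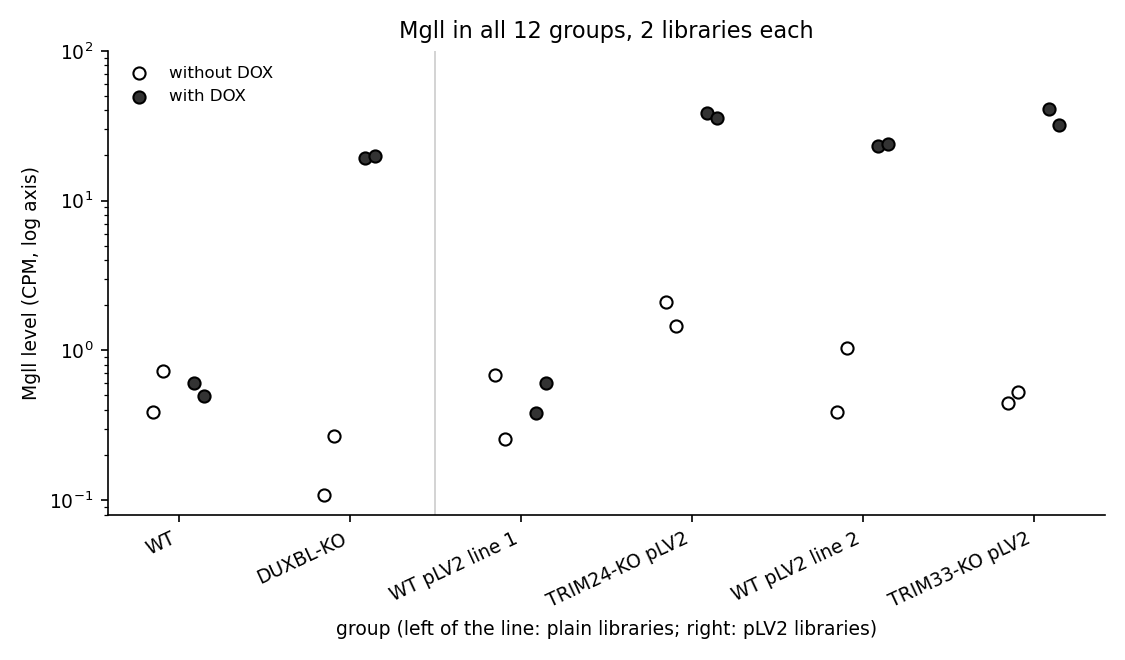
Mgll level (CPM, log axis) in each of the 24 libraries, open symbols without DOX and filled symbols with DOX; the plain and pLV2 libraries (left and right of the line) were scaled separately. With DOX, WT and WT pLV2 line 1 stay at 0.605 CPM or less, while WT pLV2 line 2 is at 23.0 and 23.9 CPM and DUXBL-KO at 19.3 and 19.9 CPM.

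The promoter of Mgll is shown beside that of Zscan4c, a 2-cell gene that rose strongly with DOX in WT pLV2 (log2 10.26). Zscan4c is an example that holds the motif given below, which most genes that rose as strongly did not hold. Zscan4b and Zscan4f also had 1 match each, while Zscan4d, Zfp352 and Tdpoz1 had 0. Both sequences are 300 bases from RefSeq (GRCm38.p6), 250 before to 50 after the annotated start, written along the gene's strand. Capitals mark TGATTNAAT, a core of the DUX motif, searched on both strands (its reverse is ATTNAATCA).
Mgll, chr6:88724162-88724461, + strand: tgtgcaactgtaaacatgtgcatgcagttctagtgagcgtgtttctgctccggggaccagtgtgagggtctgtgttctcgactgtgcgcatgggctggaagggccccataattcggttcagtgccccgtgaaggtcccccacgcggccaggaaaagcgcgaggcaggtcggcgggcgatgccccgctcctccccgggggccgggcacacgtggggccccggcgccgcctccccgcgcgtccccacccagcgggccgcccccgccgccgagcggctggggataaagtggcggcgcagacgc
Zscan4c, chr7:11005495-11005794, + strand: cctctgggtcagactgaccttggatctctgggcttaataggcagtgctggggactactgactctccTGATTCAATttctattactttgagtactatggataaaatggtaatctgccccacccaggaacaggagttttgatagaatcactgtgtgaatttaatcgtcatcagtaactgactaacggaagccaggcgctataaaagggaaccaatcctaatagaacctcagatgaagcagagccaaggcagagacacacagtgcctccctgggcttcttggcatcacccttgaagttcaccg
The motif was present in 0.718% of all 32851 annotated promoters. Counted by gene, with a match in any of its promoters, it was in 52 of 11408 tested genes with an annotated promoter (0.456%). It was in 33 of 10637 such genes neither raised nor lowered with DOX in WT pLV2 (0.310%). Of the 590 genes that rose there by a log2 of 6 or more, 161 had an annotated promoter, and 13 of these (8.07%) held it. Of the called genes 11 had an annotated promoter and 0 held it, and 11 genes are too few to set against any of these shares. Neither of the 2 annotated Mgll promoters held it in these 300 bases.

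The other 12 called genes differed by nearly as much without DOX. The libraries without DOX are separate ones of the same labelled cells, and may come from the same cultures. All 12 kept their direction and at least 0.5 of their size, and 6 of the 13 were also called without DOX, where 7 genes in all passed (0.0388%). Plekha8, which encodes a lipid-transfer protein of the trans-Golgi, had 52.3 and 53.4 CPM in WT and 25.4 and 25.9 CPM in the KO-labelled libraries with DOX. Its log2 difference was -1.04 ± 0.10 with DOX (adjusted p 0.0356) and -1.09 ± 0.10 without (0.0395). Nod1, an intracellular sensor of bacterial peptidoglycan, had 32.5 and 18.5 CPM in WT and only 0.657 and 1.15 CPM in the KO-labelled libraries, a difference of -4.78 ± 0.51 with DOX and -5.19 ± 0.51 without. The groups did not overlap for either gene.

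The remaining called genes also kept their differences. Among the lower genes, Snx10, a sorting nexin of the endosome, had 42.9 and 48.8 CPM in WT and 18.1 and 16 CPM in the KO-labelled libraries, differing by -1.43 with and -1.51 without DOX. Avl9 differed by -1.14 and -1.36, Kbtbd2, an adaptor of a ubiquitin ligase, by -1.10 and -1.0, and Ggct, gamma-glutamylcyclotransferase, by -2.17 and -1.92. Tax1bp1, an autophagy receptor, was at 177 and 168 CPM against 102 and 98.4 CPM, or -0.78 with and -0.85 without DOX. Prag1 (chromosome 8), a pseudokinase scaffold, differed by -1.26 and -1.02. The higher genes were Tsn, the nucleic-acid-binding protein translin, at 110 and 112 CPM in WT against 187 and 200 CPM (0.80 with, 0.76 without DOX), and Atp2a2, the SERCA2 calcium pump of the endoplasmic reticulum, at 297 and 283 CPM against 499 and 521 CPM (0.81 and 0.72).

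**Figure D3:**
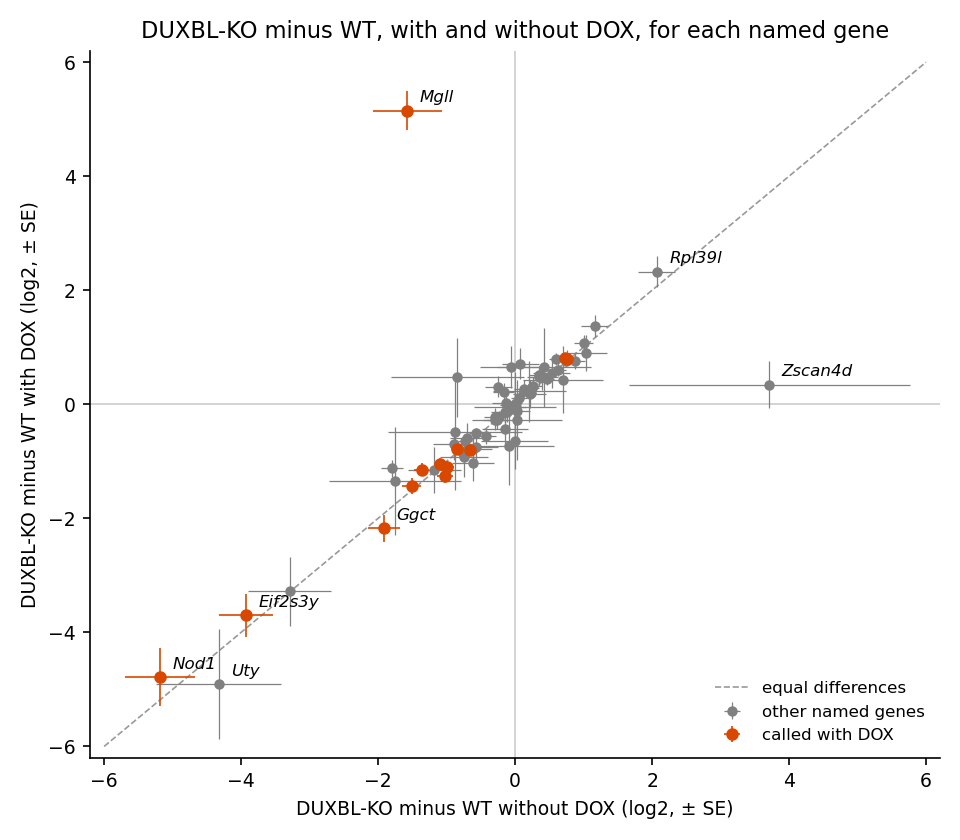
Log2 difference DUXBL-KO minus WT with DOX (vertical) against without DOX (horizontal), with SE bars, for the named genes that had at least 20 counts over the 4 libraries without DOX. Of the 13 called genes (orange) 12 lie near the dashed line of equal differences, and Mgll lies at 5.15 with and -1.57 without DOX.

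Beyond the called genes, the match was close among genes not classed as raised by DOX and looser among those that were. Of 1817 genes under an unadjusted p of 0.05 with DOX, 1662 (91.5%) had the same sign without DOX, against 74.8% of all 18060 genes. Among the 1556 of them not classed as raised by DOX in WT pLV2 the share was 97.8%, with a Pearson correlation of 0.84 across genes between the differences, whose median size was 0.68 with and 0.52 without DOX. Among the 261 classed as raised, 140 (53.6%) had the same sign, with a correlation of 0.23, and the median size was 1.17 with and 0.30 without DOX. Many of these 261 had few or no reads without DOX. Of the 75 with a mean of at least 10 counts there, 61 (81.3%) had the same sign, against 1459 of 1483 (98.4%) of those not classed as raised, a filter chosen after seeing the data. Genes are not independent replicates, and the replicates with and without DOX may come from shared cultures, so these shares and correlations are given without a test. Rpl39l, a ribosomal protein paralogue, was just outside the threshold (adjusted p 0.0528) with 9.36 and 5.8 CPM in WT and 41.3 and 34.6 CPM in the KO-labelled libraries, and differed by 2.33 with and 2.07 without DOX. Its reads may be shared with other copies of Rpl39. Cyp2s1 (1.08 with and 1.0 without), the scaffold protein Ahnak (0.79 and 0.60), the annexin Anxa4 (1.37 and 1.16) and the microtubule protein Clasp1 (0.76 and 0.74) were the next higher genes with at least 50 counts, and 0 of these 5 passed.

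WT cells differed among themselves in most of these genes. Between the WT pLV2 lines with DOX, in a comparison added after the Mgll levels were seen, 7219 of 18079 genes (39.9%) passed the test, and 10 of the 13 genes called here were among them, of which Plekha8, Prag1 and Atp2a2 had the opposite direction. Line 2 minus line 1 was 5.55 ± 0.31 for Mgll, -5.44 ± 0.24 for Nod1 and 1.38 ± 0.10 for Tsn (log2, SE, adjusted p at most 3.94e-08), for all 3 in the direction of KO-labelled minus WT. Nod1 was at 0.535 and 0.298 CPM in WT pLV2 line 2 with DOX and at 18.9 and 17.8 CPM in line 1. For 8 of the 13 genes, Plekha8, Prag1, Snx10, Kbtbd2, Avl9, Cbx3, Tax1bp1 and Ggct, all 4 WT pLV2 libraries with DOX lay nearer to the KO-labelled libraries than to plain WT. Plekha8 for example was at 15.8, 13.4, 20.2 and 19.1 CPM there. Only for Eif2s3y and Atp2a2 did all 4 lie nearer to plain WT. With separate scaling of the 2 sets these levels carry an error that was not measured, and genotype and cell line cannot be told apart where each genotype may be 1 line.

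Of the 10 lower genes, 8 lay between 40 and 60 Mb of chromosome 6, where 91 of 111 tested genes were lower with a median log2 difference of -0.89 with and -0.83 without DOX. All of these 8 but Nod1 were among the genes above for which the WT pLV2 libraries with DOX lay nearer to the KO-labelled ones. Ezh2, the catalytic subunit of Polycomb repressive complex 2, lies in that stretch and was at 161 and 184 CPM in WT and 92.0 and 99.5 CPM in the KO-labelled libraries (-0.85 ± 0.10, adjusted p 0.0528). The next stretches on both sides stood near 0, with medians of -0.03 at 20 to 40 Mb and 0.04 at 60 to 80 Mb. Mgll, at 88 Mb, lies outside, in a 20 Mb window with a median of 0.08. A second stretch at 100 to 120 Mb had a median of -0.48, with 92 of 110 genes lower. The next 5 Mb, at 120 to 125 Mb, had a median of -0.41, with 43 of 57 genes lower. Cut into 5 Mb windows with at least 8 tested genes, 16 of 473 windows over the genome had a median beyond 0.4 in either direction, and 13 of them had the same sign without DOX. Outside chromosome 6 they included 115 to 120 Mb of chromosome 1 (0.56 with and 0.56 without DOX), which holds Tsn, Clasp1, the nucleolar protein gene Nifk (0.77 with DOX), the Hedgehog effector Gli2 (0.61) and Tfcp2l1 (0.82). They also included 120 to 125 Mb of chromosome 13 (0.82) and 115 to 120 Mb of chromosome 14 (0.55). Over whole chromosomes, chromosome 11 had the lowest autosomal median, -0.18 with and -0.21 without DOX, with 1090 of 1379 genes lower.

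Of 10 tested genes of the Y chromosome 6 were lower, with a median of -1.37, and 1 was called, where 0.072% of all genes were. Eif2s3y, which encodes a subunit of translation initiation factor eIF2, had 35.3 and 60.6 CPM in WT and 3.88 and 3.50 CPM in the KO-labelled libraries with DOX (-3.70 ± 0.38, adjusted p 0.0356). Its paralogue on the X chromosome is close in sequence, and how such reads were shared out is not given in the sources used here. Uty, a histone demethylase paralogue, had 20.1 and 55.8 CPM against 2.30 and 0.328 CPM, and the RNA helicase Ddx3y 46.7 and 100.1 CPM against 10.1 and 5.13 CPM. These 2 did not pass (adjusted p 0.171 and 0.149), and in both the second WT library stood well above the first. Usp9y went the other way with DOX, at 14.5 and 10.5 CPM in WT and 23.5 and 21 CPM in the KO-labelled libraries. Without DOX it was at 0.310 and 0.486 CPM in WT and 0.0539 and 0.0534 CPM in the KO-labelled libraries. Usp9y is among the genes that rose most with DOX in WT pLV2 (log2 9.88).

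The 2-cell genes were higher in the KO-labelled libraries on balance, but none was called (0.072% of all genes were). Over 41 tested genes of 3 lists, 39 were higher, with a median log2 difference of 0.68, against 52.7% higher and a median of 0.02 over all genes tested. For 16 of the 41 both KO-labelled libraries were above both WT libraries, where 21.6% of all genes showed that. Among genes that rose with DOX in WT pLV2 by a log2 of 6 or more, 348 of 590 showed it. Of those that rose by 4 to 6, 71 of 118 did. The Zscan4 family, DNA-binding proteins active at telomeres in these cells, had 0 of 6 genes without overlap and a median of 0.38. Zscan4c was at 449 and 189 CPM in WT and 500 and 298 CPM in the KO-labelled libraries, and Zscan4d at 559 and 230 CPM against 634 and 368 CPM. The first WT library thus lay above the second KO-labelled library for both. Without DOX the 6 genes summed to 0.310 and 0.243 CPM in WT and 1.83 and 2.57 CPM in the KO-labelled libraries, a few counts per gene. The copies are near identical, so reads may be split between them.

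The multi-copy families gave a larger shift. All 24 were higher (median 0.70), with differences from 0.35 (Gm12794) to 1.57 (Tdpoz2), and 9 of the 24 had no overlap, where 21.6% of all genes were higher with no overlap. The Tdpoz genes, which encode TRAF and BTB domain proteins, led the list: Tdpoz2 was at 6.06 and 3.23 CPM in WT and 14.9 and 12.8 CPM in the KO-labelled libraries, Tdpoz1 at 12.7 and 4.98 CPM against 19.5 and 22.8 CPM. Tcstv3 was at 83.4 and 27.0 CPM against 103 and 92.3 CPM, a difference of 0.82 ± 0.44. Usp17la, of a deubiquitinase family, was at 57.4 and 22.5 CPM against 76.6 and 58.8 CPM (0.76 ± 0.41), and BC080695 differed by 0.41.

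Of the 13 single-copy 2-cell genes 11 were tested, and 9 were higher, with a median of 0.90. Zfp352, a zinc finger gene that marks this state, was at 77.0 and 27.0 CPM in WT and 125 and 104 CPM in the KO-labelled libraries (1.14 ± 0.42, adjusted p 0.448). Olfr376 gave the highest value, 1.22, and the chromatin reader Sp110 gave 1.08 (154 and 66.6 CPM against 285 and 182 CPM). Tmem92 (-0.19) and Slc34a2 (-0.58) were the 2 that were lower. Tmem92 was at 260 and 89.0 CPM in WT and 198 and 107 CPM in the KO-labelled libraries, and turned to 0.78 without WT replicate 1.

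The size of these differences varied with the library left out. In the second WT library the 3 lists summed to 2489 CPM, against 6179 CPM in the first WT library and 7459 and 4872 CPM in the KO-labelled ones. Without it, 23 of the 41 were higher (median 0.15), and 0 of the 6 Zscan4 genes. Without the first KO-labelled library 31 of 41 were higher, with a median of 0.33, and again 0 of the 6 Zscan4 genes. Without the first WT library all 41 were higher, with a median of 1.51. With all libraries and a replicate block the median was 0.78, though no label says that a replicate number marks a shared batch. With 2 libraries against 2, an exact permutation test of a summed value cannot give less than 0.333.

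Over classes of genes the difference was larger where the response to DUX was stronger. Genes were put in classes by their DOX effect in WT pLV2 (mean of both lines, adjusted p under 0.05), which shares no library with this comparison. In 590 genes that rose there by a log2 of 6 or more, 567 were higher in the KO-labelled libraries, with a median of 0.88 (quartiles 0.61 and 1.13). The median was 0.80 in 118 genes that rose by 4 to 6, 0.45 in 183 that rose by 2 to 4, and 0.20 in 364 that rose by 1 to 2. It was 0.00 in 15840 genes classed as neither raised nor lowered, which include genes past a log2 of 1 that did not pass the test there, and -0.06 in 146 that were lowered. The 1 called gene among the induced classes was Mgll, in that of 2 to 4, through its rise in line 2. In the strongest class the 4 libraries lay, relative to their own mean, at 0.10 and -0.92 (WT) and 0.59 and 0.26 (KO-labelled). The second WT library thus stood apart from the other 3. Without the second WT library 468 of 590 were higher with a median of 0.39, and without the first WT library 587 were higher.

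**Figure D4:**
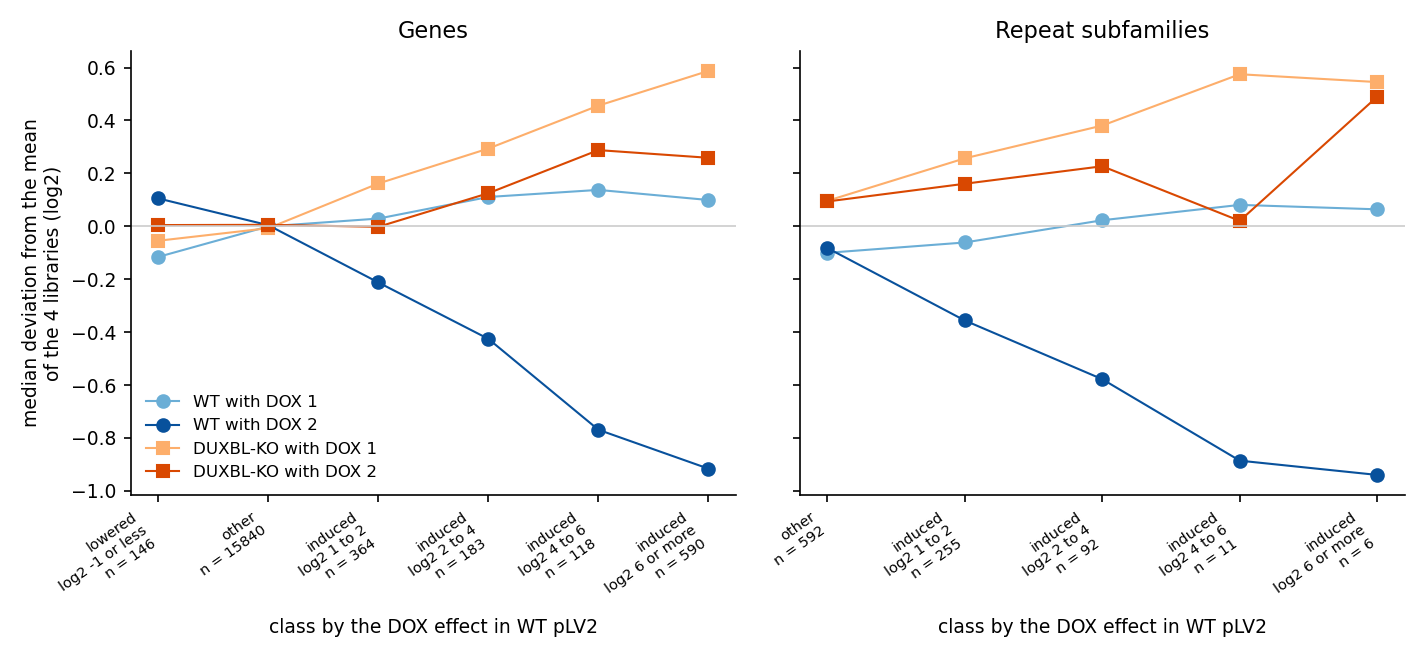
Median deviation (log2) of each of the 4 libraries with DOX from their common mean, for genes (left) and repeat subfamilies (right) in classes by their DOX effect in WT pLV2; circles are WT, squares DUXBL-KO. The second WT library falls to -0.92 in the strongest gene class, while the first WT library (0.10) and the KO-labelled ones (0.59 and 0.26) lie closer together.

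Repeat subfamilies were broadly higher in the KO-labelled libraries, with 0 called. MERVL-int, the internal part of the MERVL retrovirus, was at 22999.7 and 9902.2 CPM in WT with DOX and at 37436.4 and 33661 CPM in the KO-labelled libraries, relative to gene counts. Both KO-labelled libraries lay above both WT libraries, and the difference was 1.11 ± 0.34 (SE, adjusted p 0.188). Without DOX MERVL-int was at 141 and 148 CPM in WT and at 185 and 239 CPM in the KO-labelled libraries, and the interaction was 0.55. Its long terminal repeat MT2_Mm, which serves as promoter for MERVL and for many 2-cell transcripts, was at 5505 and 2358 CPM against 8160 and 7422 CPM (0.99 ± 0.34). MT2C_Mm differed by 0.72 ± 0.21. MERVL-int passed in DESeq2 (adjusted p 0.0262) and without the first WT library (1.84, adjusted p 0.0093), and without the second WT library it was 0.63.

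Over all 981 subfamilies 854 (87.1%) were higher, with a median of 0.28, and 632 (64.4%) had both KO-labelled libraries above both WT libraries. All 210 subfamilies (21.4%) under an unadjusted p of 0.05 were higher. The smallest adjusted p was 0.188. Repeats and genes share the same scaling factors, and with library sizes that include the repeats 839 were higher with a median of 0.26. Without DOX the median was 0.12. The interaction was called for 0 of 981 subfamilies (0%, 18 under an unadjusted p of 0.05).

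All 19 families with at least 5 tested subfamilies had a median above 0, under each of the scalings tried. ERVK, the family of the IAP and ETn elements, had 255 of 270 subfamilies higher and a median of 0.36, with both KO-labelled libraries above both WT libraries in 186 of 270, beside 64.4% over all subfamilies. L1, the autonomous LINE elements, had 115 of 129 higher and a median of 0.30. The medians were 0.32 for ERV1 (92 of 106 higher) and ERVL-MaLR (84 of 90), and 0.30 for ERVL (79 of 95). The SINE family B2 had a median of 0.46 over 5 subfamilies and Alu (B1) 0.12 over 16, all higher. The medians of DNA transposon families ran from 0.13 to 0.24.

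Some ERVK and L1 subfamilies were lower, and none of the subfamilies named here passed. IAPEz-int, a retrovirus held silent by TRIM28 and SETDB1 in these cells, was at 621 and 484 CPM in WT and 777 and 933 CPM in the KO-labelled libraries (0.63 ± 0.20). ETnERV-int of the same family was at 1426 and 1646 CPM against 820.5 and 1690.4 CPM (-0.29 ± 0.42), and MMETn-int at 5593 and 6646 CPM against 2820 and 5990 CPM (-0.47 ± 0.42), where the first KO-labelled library alone was low. Of the young LINE-1 subfamilies, L1Md_T was at 2838 and 3453 CPM in WT and 4440 and 3749 CPM in the KO-labelled libraries (0.38 with and 0.52 without DOX), and L1Md_A differed by -0.05 ± 0.30. B2_Mm1a differed by 0.74 ± 0.21 and B1_Mm by 0.30 ± 0.10. The major satellite GSAT_MM was at 307 and 148 CPM against 522 and 238 CPM (0.74 ± 0.64), with overlapping groups.

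The smallest p-values belonged to BGLII (0.53 ± 0.09), MER89 (1.15 ± 0.21), IAPEY4_I-int (0.99 ± 0.20), RMER19C (0.65 ± 0.14) and L1_Mm (0.52 ± 0.12), each with an adjusted p of 0.188. MER89, an ERV1 repeat, was at 43.7 and 27.3 CPM in WT and 84.0 and 73.5 CPM in the KO-labelled libraries, and differed by only 0.13 without DOX. BGLII was at 38.6 and 38.2 CPM against 56.1 and 54.7 CPM, and differed by 0.31 without DOX. These are log2 differences, with SE. In the 6 subfamilies that rose most with DOX in WT pLV2 the median difference was 0.97, against 0.19 in the 592 classed as neither raised nor lowered.

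**Figure D5:**
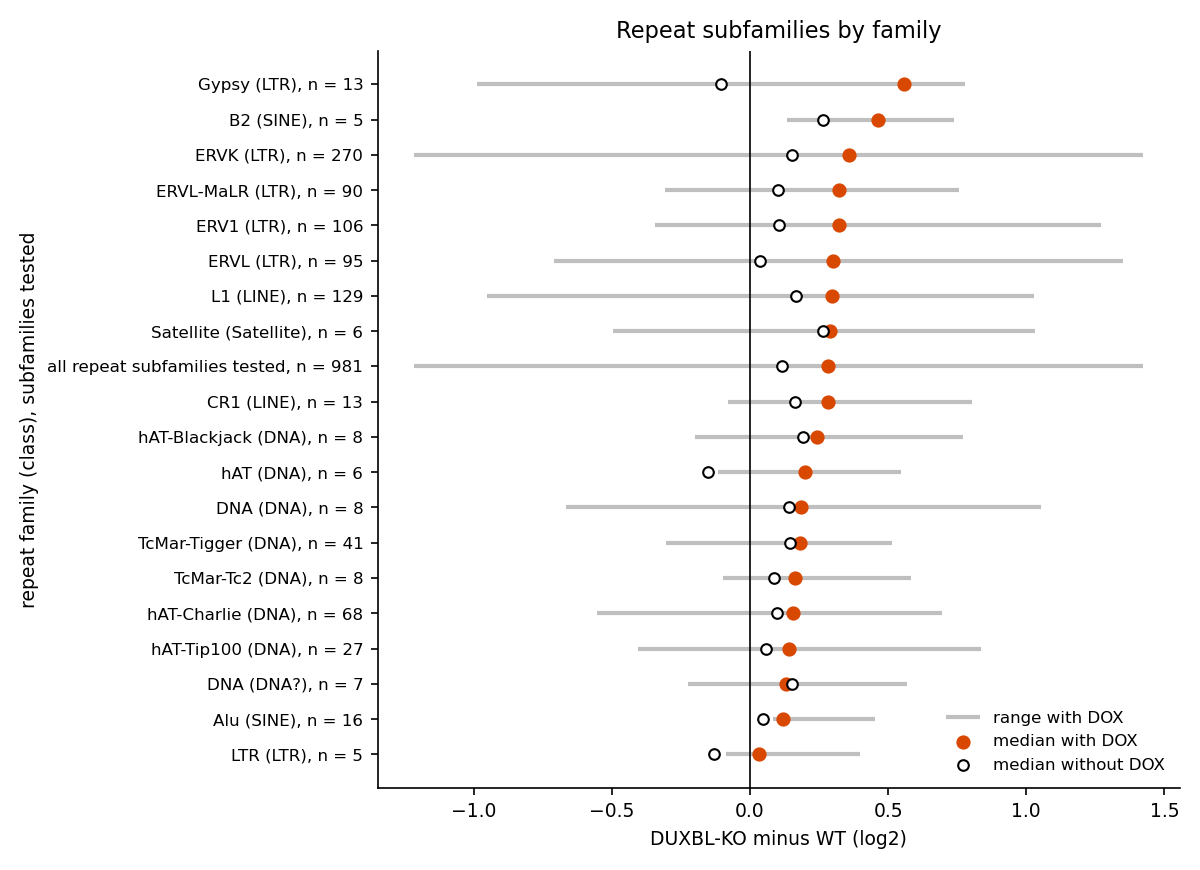
Log2 difference DUXBL-KO minus WT of repeat subfamilies by family: filled points are medians with DOX, open points medians without DOX, and grey lines the range with DOX. Every family median with DOX is above 0, from 0.03 (LTR) to 0.56 (Gypsy), and 0 subfamilies passed the test.

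Of the TIF1 family, corepressors that bind chromatin and zinc finger proteins, Trim28 was at 1939 and 1673 CPM in WT and 2735 and 2271 CPM in the KO-labelled libraries (0.47 ± 0.16 with and 0.35 without DOX), Trim24 differed by 0.11 ± 0.11 and Trim33 by -0.01 ± 0.08. Trim66 was low and variable, at 0.420 and 3.23 CPM against 1.84 and 0.819 CPM. In a list of 28 chromatin repressors of the 2-cell-like state 1 gene was called, 18 were higher and the median was 0.07, beside 0.072% called, 52.7% higher and a median of 0.02 over all genes. The called gene was Cbx3, or HP1 gamma, which binds methylated histone H3, at 169 and 178 CPM against 96.2 and 102 CPM (-0.81 ± 0.08 with and -0.66 without DOX). It lies in the 40 to 60 Mb stretch of chromosome 6, and its reads may be shared with processed copies. Ehmt2, the histone methyltransferase G9a, was at 157 and 175 CPM against 231 and 223 CPM (0.45 with and 0.46 without DOX), Setdb1 differed by 0.24 and Smchd1 by -0.28, and none of these 3 passed.

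Of 10 activators of the state 7 were lower, with a median of -0.06, where 8540 of all 18060 genes were lower with a median of 0.02. None of the 10 was called, as for nearly all genes (0.072% called). Nelfa, a subunit of the negative elongation factor and a DUX-induced gene in WT pLV2, was at 352 and 179 CPM in WT and 463 and 403 CPM in the KO-labelled libraries (0.71 ± 0.27). Dppa2, which primes 2-cell genes, differed by 0.27 ± 0.15. The histone demethylase gene Kdm5a was at 186 and 196 CPM against 140 and 128 CPM (-0.51 with and -0.57 without DOX), and Kdm5b differed by -0.23.

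Of 21 naive pluripotency genes 13 were higher, with a median of 0.03, beside 52.7% higher and a median of 0.02 over all genes. None of them or of the formative and primed genes was called, which at 0.072% called over all genes says nothing about these lists. Tfcp2l1, a naive transcription factor gene in the chromosome 1 stretch, was at 743 and 756 CPM in WT and 1442 and 1203 CPM in the KO-labelled libraries (0.82 ± 0.13, adjusted p 0.142), and Tbx3 differed by 0.49 ± 0.13. Pou5f1, which encodes OCT4, was at 680 and 713 CPM against 794 and 810 CPM (0.20 ± 0.08), Nanog differed by 0.03 ± 0.21, Zfp42 by -0.12 ± 0.20 and Klf4 by -0.22 ± 0.11. Dppa3 was at 41.6 and 26.6 CPM against 23.1 and 3.99 CPM (-1.35 ± 0.94), with much of the spread between the KO-labelled libraries. Of 11 formative and primed genes 7 were lower, with a median of -0.11. Zic2, a zinc finger factor of primed cells, differed by -1.16 ± 0.40. The DNA methyltransferase Dnmt3a differed by -0.75 ± 0.33 and its partner Dnmt3b by 0.31 ± 0.08, and Foxd3 by 0.52 ± 0.15.

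The lists that hold the called enzyme and the called pump held no other call. Over all 18060 genes, for comparison, 0.072% were called, 52.7% were higher and the median was 0.02. Of 12 genes of monoacylglycerol and endocannabinoid metabolism Mgll alone was called, 8 were lower and the median was -0.15. Faah, which degrades the endocannabinoid anandamide, was at 4.86 and 7.38 CPM against 4.14 and 4.04 CPM (-0.58 ± 0.25), the synthetic enzyme Dagla differed by -0.43 ± 0.35, and Plcb1, a DUX-induced phospholipase gene, by 0.66 ± 0.37. Of 14 calcium genes Atp2a2 alone was called, 11 were lower, and the median was -0.27. In 8 of the 14 both KO-labelled libraries were below both WT libraries, where 19.2% of all genes showed that. Among these were the plasma membrane pumps Atp2b4 (37.4 and 21.7 CPM against 16.4 and 14.9 CPM) and Atp2b2 (6.72 and 4.21 CPM against 3.42 and 3.28 CPM), which lies at 113 Mb of chromosome 6. Atp2a3, the SERCA3 pump, was at 20.6 and 28.0 CPM against 15.6 and 60.3 CPM and overlapped.

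Stress, sterol and lineage lists held 0 called genes, which with 0.072% of all genes called is no result about their members. Over all genes 52.7% were higher and the median was 0.02. The median was -0.01 over 19 p53 targets, 0.02 over 15 genes of the integrated stress and unfolded protein response, 0.04 over 15 genes of cholesterol synthesis and -0.11 over 6 genes of the interferon response, where 10 of 16 were under the filter. The cell cycle inhibitor Cdkn1a was at 16.9 and 17.9 CPM in WT and 13.1 and 10.6 CPM in the KO-labelled libraries (-0.55 with and -0.42 without DOX). The p53 targets Gdf15 (-0.73), Phlda3 (0.33) and Perp (0.43) varied in both directions. Xbp1, a transcription factor of the unfolded protein response, differed by -0.79 ± 0.27, Ddit3 by -0.64 ± 0.49, Herpud1 by 0.23 and Dnajb9 by 0.31. Among sterol genes the differences ran only from -0.13 (Hmgcs1) to 0.22 (Dhcr7). Ddx58, the RNA sensor RIG-I, differed by 0.48 ± 0.23 and Stat2 by -0.27 ± 0.18. Of 12 tested germ layer and trophectoderm markers 7 were lower, and Tfap2c, a trophectoderm and germline factor, was at 63.2 and 49.0 CPM against 34 and 21.1 CPM (-1.03 ± 0.31). The keratin Krt8 differed by 0.90 ± 0.31 and Eomes by 0.56 ± 0.28.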

How the data were processed

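The authors deposited 1 table per library with raw counts per gene and per repeat subfamily. Reads were 75 bp pairs from a strand-specific, rRNA-depleted library, per the labels' protocols, and bcl2fastq 2.20.0, cutadapt 1.18, STAR 2.7.6a and mm10 are named in the submitters' processing notes. The counting tool and its handling of strand and of reads with several matches are not given in the sources used here, which bears on gene copies and repeats. Of 55487 gene IDs, 54435 matched GENCODE M21 with version, 792 without, and 260 did not. Here edgeR 4.0.16 (R 4.3.3; filterByExpr, TMM on gene counts for genes and repeats, quasi-likelihood test, 2-sided, 1 mean per group over 8 plain libraries) was used with Benjamini-Hochberg adjustment at 0.05, apart for genes and repeats; the 16 pLV2 libraries were fitted separately. The fitting was tested on simulated data. DESeq2 1.42.0 was an alternative, beside other scalings, filters, samples and a replicate block. CPM use effective library sizes. Named were all called genes (at most 30), the 8 higher and 8 lower with the smallest p, no overlap and a mean of at least 50 counts, a fixed set, and 2 highest and 2 lowest per list (mean of at least 20 counts; repeats 100); Gm44001, the Mgll neighbours, Nifk, Gli2, Uty, Ddx3y, Usp9y, Ezh2, Sp110, Slc34a2, Usp17la and Fbln1, and the comparison of WT pLV2 lines, were chosen after their values were seen. 1 gene that the rule names is not reported here. The comparison and the lists were chosen with earlier results of these data known. A group with at most 3 counts per library was taken as at the floor.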

Additional observations from a re-analysis of the deposited data

How the results depend on the processing

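The 13 genes called with DOX became 837 with no filter on low counts, 1 with only the compared groups, 164 in DESeq2, and 0 to 0 when 1 library was left out, with all 13 directions kept. The 0 repeat subfamilies became 126 with no filter and 24 in DESeq2, and 0 to 24 without 1 library, the 24 without WT replicate 1. The 0 interactions became 11 genes and 4 repeat subfamilies with no filter, and 1 gene in DESeq2. The 7 genes called without DOX became 545 with no filter, 171 in DESeq2 and 0 to 0 without 1 library, and its 0 repeats became 22 with no filter. Of the 13 genes, 9 had an absolute log2 difference of at least 1. Replicate numbers are shared between groups, but no label says that a number marks a shared batch. The deviations of same-numbered libraries correlated by 0.255 to 0.549 over the 6 pairs of groups, and with the replicate block 459 genes were called with DOX and 402 without, and 0 repeats, and the 2-cell median was 0.78. MERVL-int gave 1.10 with no filter (adjusted p 1.17e-20), 1.11 in DESeq2, and 0.63 to 1.84 without 1 library. The 2-cell median ran from 0.15 to 1.51 and the median of DOX-induced genes from 0.24 to 1.22. An alternative chosen after seeing the data counted the higher features without each library in turn, and gave 23 to 41 of the 2-cell genes and 0 to 6 of the Zscan4 genes, and 468 to 587 of 590 strongly induced genes and 819 to 843 of 981 repeat subfamilies. The causes of these moves were not tested.

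Some uncalled features changed sign without 1 library. Their ranges were -1.30 to 1.63 for Trim66, -0.057 to 0.039 for Trim33, -0.23 to 1.31 for Duxbl1, -0.76 to 1.80 for Duxbl3, -0.17 to 1.08 for Zscan4c, -0.16 to 1.12 for Zscan4d, -0.096 to 1.10 for Zscan4f and -0.051 to 1.22 for Zscan4b. They were -0.14 to 1.07 for Gm12794, -0.11 to 1.22 for BC080695, -0.77 to 0.78 for Tmem92, -1.38 to 0.51 for Gdf15, -0.58 to 0.99 for Perp, -1.14 to 0.12 for Ddit3 and -0.29 to 1.04 for Herpud1. Ranges were -0.65 to 1.29 for Atp2a3, -0.34 to 0.042 for Hmgcs1, -0.15 to 0.0012 for Lss, -0.14 to 0.42 for Msmo1, -0.36 to 0.13 for Bst2, -0.81 to 0.67 for Oas1a, -1.35 to 0.44 for Sox1, -0.20 to 0.21 for Nanog and -0.34 to 0.099 for Zfp42. Among repeats they were -0.29 to 0.22 for L1Md_A, -0.92 to 0.12 for ETnERV-int, -2.03 to 0.80 for IAPEY5_I-int, -0.0066 to 0.19 for Kanga2_a, -0.40 to 0.28 for L1ME3B, -0.082 to 0.019 for MLT1F, -1.53 to 0.44 for LTR88c and -0.11 to 0.17 for ZP3AR.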
